A study of Mus musculus with 6 samples.

Results

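The genes of the renin angiotensin system were followed in the aortas of mice with medial or atherosclerotic calcification. The 8 members were Agt, Ren1, Ace, Agtr1a, Agtr1b, Agtr2, Enpep and Atp6ap2, taken by matching the Ensembl identifiers of the deposited tables to gene symbols, out of 27815 genes listed for each library. All 8 were found, each under a single identifier. The CKD group was C57BL/6 mice that lost both poles of the left kidney at 8 weeks of age and the right kidney after 1 week of recovery, and then had a diet with 2% phosphate and drinking water with 0.45% NaCl for 4 weeks. The ApoE group was C57BL/6 mice lacking apolipoprotein E (ApoE-/-), kept on chow for 16 months. The Ctrl group was wild type C57BL/6 mice of 8 weeks, with no sham operation mentioned. Each group had 2 libraries of polyadenylated RNA. The CKD libraries also carry an age label of 16 months, which conflicts with their protocol, so their age is uncertain. Under either reading the CKD mice were older than the 8 weeks of Ctrl. Age differs together with genotype between ApoE and Ctrl, and age, surgery, phosphate and salt together between CKD and Ctrl. Between CKD and ApoE genotype, surgery, phosphate, salt and perhaps age differ together. Within each comparison these cannot be told apart. The labels do not say that the libraries of a group came from separate animals, so SDs and p-values describe only how far these libraries differ, and that spread may be technical.

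The renin angiotensin system is a chain of cleavages in the blood and in tissues. Renin, released by the kidney, cuts angiotensinogen, a plasma protein made chiefly in the liver and also in fat, to angiotensin I, and angiotensin converting enzyme on endothelial surfaces turns that into angiotensin II. Angiotensin II constricts arteries through type 1 receptors on smooth muscle, of which rodents have an A and a B form, while type 2 receptors are known mostly from fetal tissue and oppose many of these effects.

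Levels are given in FPKM, that is, reads relative to exon length and sequencing depth, so that they can be compared between genes. Depth, recovered from the values by a fit to whole reads, was 14.44 to 16.64 M reads per library. At that depth a single read on 2 kb of exon adds 0.0301 to 0.0346 FPKM. The read numbers below were calculated back from FPKM with these fitted depths. Fold changes are differences of log2(FPKM + 1) from a limma model over the 14074 genes that reached 1 FPKM in 2 or more libraries. A gene was called at a Benjamini-Hochberg adjusted p below 0.05. Of all genes tested, 5.44% were called in CKD versus Ctrl, 39.7% in CKD versus ApoE and 44.1% in ApoE versus Ctrl. Counts of called markers and list genes stand beside those shares. Apoe, the gene deleted in the ApoE group, had 13.2 and 11.4 FPKM there, against 756 and 627 FPKM in Ctrl. Smooth muscle, endothelial and fibroblast markers were present in every library, as the aorta should show. The aortas also differed in tissue makeup. Summed over 7 markers, smooth muscle stood at 3396 and 5901 FPKM in CKD, 643 and 563 FPKM in ApoE and 8290 and 7429 FPKM in Ctrl. The sum of 7 macrophage markers was 684 and 1206 FPKM in CKD, 6649 and 10600 FPKM in ApoE and 350 and 321 FPKM in Ctrl. Mitochondrial genes summed to 85444 and 48268 FPKM in CKD, 83584 and 94560 FPKM in ApoE and 26579 and 35616 FPKM in Ctrl, and their part in the results was not tested. In such whole tissue, fewer cells of a type and less RNA per cell cannot be told apart.

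The promoters of 3 members are shown. Agt and Ren1 were the members called higher in CKD versus Ctrl, and Atp6ap2 was the member called higher in ApoE versus Ctrl. Each sequence is the 250 bases before the RefSeq transcription start on GRCm38.p6, read 5′ to 3′ on the gene's strand, with motif matches in capitals.
Agt, chr8:124569707-124569956, minus strand: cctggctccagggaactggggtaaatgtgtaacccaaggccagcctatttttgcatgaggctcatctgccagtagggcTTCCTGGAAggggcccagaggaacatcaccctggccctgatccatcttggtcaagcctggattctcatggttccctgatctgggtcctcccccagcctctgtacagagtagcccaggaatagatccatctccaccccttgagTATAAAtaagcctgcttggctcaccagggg
Ren1, chr1:133350424-133350673, plus strand: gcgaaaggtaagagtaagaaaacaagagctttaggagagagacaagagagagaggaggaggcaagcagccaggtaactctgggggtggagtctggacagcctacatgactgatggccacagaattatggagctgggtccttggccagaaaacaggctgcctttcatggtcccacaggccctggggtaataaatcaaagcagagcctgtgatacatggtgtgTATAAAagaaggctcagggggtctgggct
Atp6ap2, chrX:12587509-12587758, plus strand: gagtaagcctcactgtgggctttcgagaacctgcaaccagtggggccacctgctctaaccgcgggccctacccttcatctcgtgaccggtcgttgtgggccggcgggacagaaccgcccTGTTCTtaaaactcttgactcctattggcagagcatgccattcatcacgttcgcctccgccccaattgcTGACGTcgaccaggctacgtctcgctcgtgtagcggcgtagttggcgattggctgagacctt
The search, on both strands of the 300 bases from 250 before to 50 after the start, covered 5 motifs. Agt and Ren1 each had a TATAAA on the coding strand, 30 and 29 bases before the start, and Agt a STAT-type TTCCTGGAA that begins 172 bases before it. Atp6ap2 had no TATAAA in this window, but a cyclic AMP element core from 62 and a steroid receptor half-site from 131 bases before the start. The TATA box, searched as TATAAA, occurred in 13.6% of all 32851 mouse promoter windows. The STAT site, searched as TTCNNNGAA, occurred in 8.30% of them. The core of the cyclic AMP response element, TGACGT, was in 7.51%. The steroid receptor half-site, TGTTCT, was in 19.0%. The clock E-box, CACGTG, was in 7.15% and in none of the 3 windows shown. A match is a run of letters and not a shown binding site, and no match says only that these letters are not in this window. Of the other members, Agtr1b had TATAAA 31 bases before its start, and Ace and Enpep had it on the opposite strand. The table had windows for 7 of the 8 members, all but Agtr1a.

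The members spanned a wide range of levels. Ordered by mean FPKM over the 6 libraries, Ace came first, followed by Atp6ap2, Agt, Enpep, Ren1, Agtr1a, Agtr1b and Agtr2. The place of Agt came from the CKD libraries alone, since the group means of Enpep, Ren1 and Agtr1a were above it in both ApoE and Ctrl. Several neighbours in that order overlapped over the 6 libraries. Ace spanned 60.0 to 192 FPKM and Atp6ap2 31.2 to 66.3 FPKM, and in ApoE Atp6ap2 was the higher of the pair. Agt spanned 0.159 to 14.5 FPKM, Enpep 1.94 to 3.94 FPKM and Ren1 0.399 to 5.39 FPKM. Agtr1a spanned 0.216 to 1.36 FPKM and Agtr1b 0.0585 to 0.472 FPKM, with Agtr1a above Agtr1b in 5 of 6 libraries. Of the 8 members, 5 passed the filter on low values, and Agt and Ren1 did so only through the CKD libraries, so the filter itself favoured a difference for them. The 3 receptor genes did not pass.

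**Figure D1:**
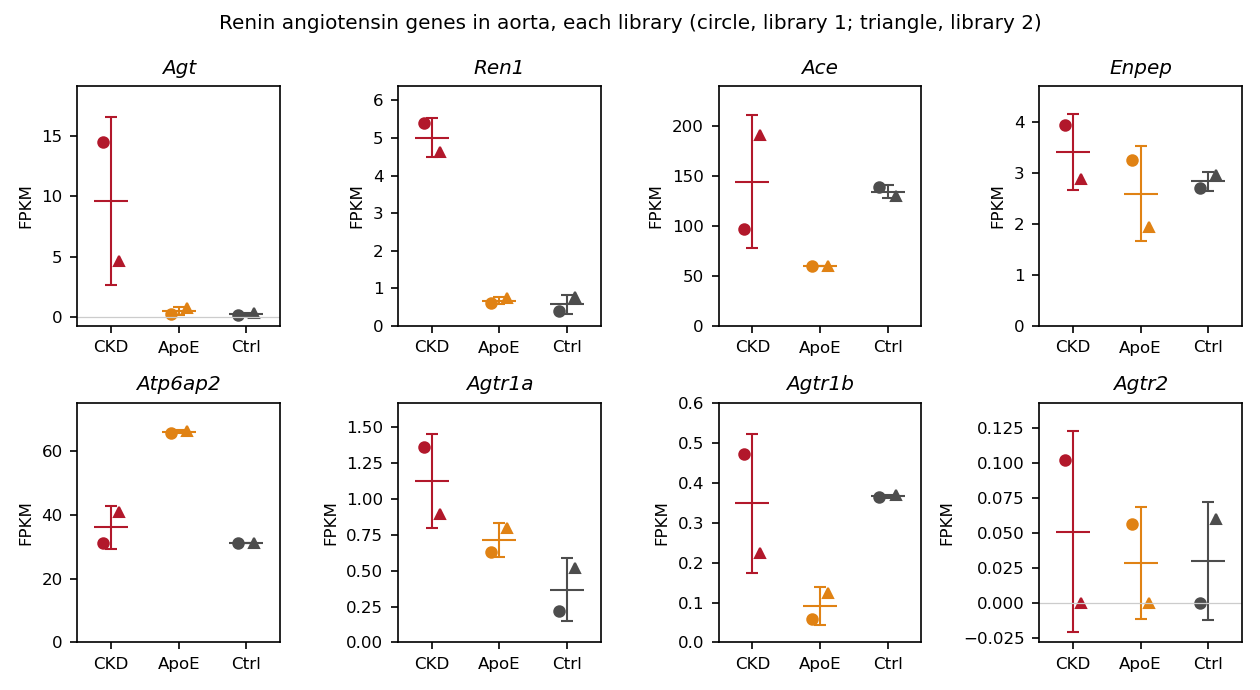
FPKM of each member in the 6 libraries (vertical axes, a separate linear scale for each gene), with circles for library 1, triangles for library 2, and a bar and whiskers for the mean and SD of 2 libraries. Agt and Ren1 are high in both CKD libraries, Atp6ap2 is high and Ace low in both ApoE libraries, and no receptor exceeds 1.36 FPKM.

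The members called higher in the nephrectomy model than in Ctrl were the substrate and its protease, Agt and Ren1. Agtr1a, which did not pass the filter, was also highest in both CKD libraries. Agt and Ren1 entered the test only through the CKD libraries. In a fit of all genes with no filter, where 0.0036% of 27815 genes were called in CKD versus Ctrl, neither of them was. Agt, which encodes angiotensinogen (ENSMUSG00000031980; GRCm38 chromosome 8, 124556534 to 124569706, minus strand), stood at 14.5 and 4.69 FPKM in CKD, 0.299 and 0.747 FPKM in ApoE and 0.159 and 0.349 FPKM in Ctrl. Both CKD libraries lay above all 4 others, and they differed from each other by 3.10-fold. Groups did not overlap for 64.2% of all genes tested in CKD versus Ctrl, for 71.0% in CKD versus ApoE and for 79.4% in ApoE versus Ctrl. These values rest on 406 and 128 reads in CKD, 9 and 21 reads in ApoE and 5 and 10 reads in Ctrl. The ratio of group means was 37.8 for CKD over Ctrl and 18.4 for CKD over ApoE. On the log2 scale Agt rose by 2.91 in CKD versus Ctrl (SE 0.464, adjusted p = 0.0356) and by 2.64 in CKD versus ApoE (SE 0.464, adjusted p = 0.00816) by limma. With no filter the adjusted p was 0.0861 in CKD versus Ctrl, not called, and 0.0239 in CKD versus ApoE.

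Ren1, which encodes renin and is the only renin gene of C57BL/6 mice (ENSMUSG00000070645; GRCm38 chromosome 1, 133350510 to 133360325, plus strand), stood at 5.39 and 4.64 FPKM in CKD, 0.606 and 0.731 FPKM in ApoE and 0.399 and 0.757 FPKM in Ctrl. The CKD libraries were close to each other and above all 4 others, while ApoE and Ctrl overlapped. They held 132 and 111 reads, against 11 to 19 reads in the 4 other libraries. Mean Ren1 was 8.67 times higher in CKD than in Ctrl and 7.50 times higher than in ApoE. By limma Ren1 rose by 1.94 on the log2 scale in CKD versus Ctrl (SE 0.173, adjusted p = 0.0145) and by 1.85 in CKD versus ApoE (SE 0.173, adjusted p = 0.00129). With no filter the adjusted p was 0.0576 in CKD versus Ctrl, not called, and 0.00486 in CKD versus ApoE.

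The renin to angiotensinogen balance differed between the CKD libraries, since Ren1 varied by 1.16-fold between them and Agt by 3.10-fold. Agt and Ren1 were the 2 members called in CKD versus Ctrl, where 5.44% of all genes tested were called, 2.23% higher and 3.21% lower. Their rise is not set against that share, since the filter admitted them through the CKD libraries. Neither was called between ApoE and Ctrl, with log2 differences of 0.27 for Agt (adjusted p = 0.665) and 0.09 for Ren1 (adjusted p = 0.703). The CKD versus Ctrl calls were fragile. Leaving out the second CKD library gave log2 values of 3.63 for Agt (adjusted p = 0.0208) and 2.03 for Ren1 (adjusted p = 0.0211), and leaving out any other single library ended both calls, with adjusted p between 0.0647 and 0.198 for Agt and between 0.0647 and 0.106 for Ren1. Against ApoE, the call for Ren1 held without any single library (adjusted p at most 0.0168), and that for Agt was lost only without ApoE library 1 (adjusted p = 0.0548).

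**Figure D2:**
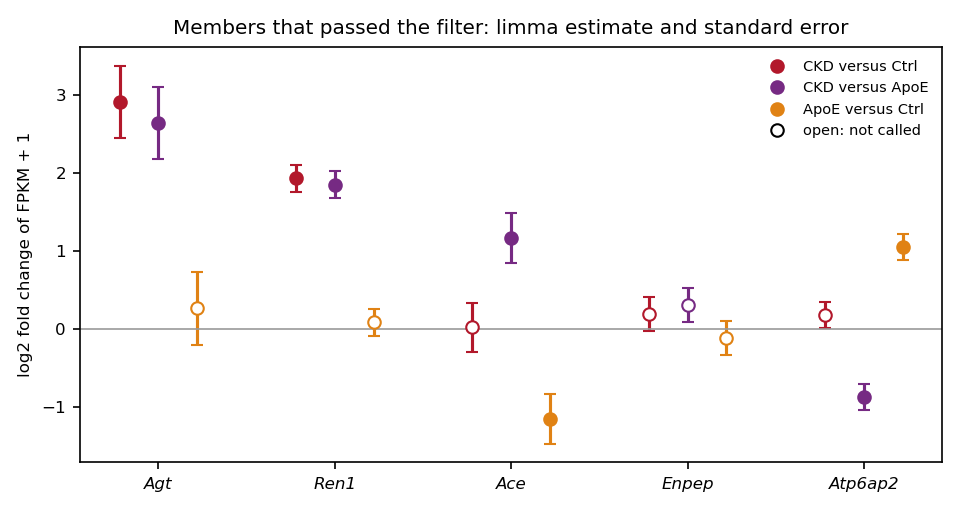
Log2 fold change of FPKM + 1 (vertical axis) for the 5 members that passed the filter, with limma's standard error, in CKD versus Ctrl, CKD versus ApoE and ApoE versus Ctrl; filled points were called at an adjusted p below 0.05. Agt and Ren1 are high in both contrasts with CKD, and Ace and Atp6ap2 differ in both contrasts with ApoE.

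Agt is made in fat as well as liver, so markers of tissues around the aorta were read beside it. The sum of 10 adipocyte markers was 8385 and 2814 FPKM in CKD, 3306 and 3550 FPKM in ApoE and 460 and 1105 FPKM in Ctrl. It differed between the CKD libraries by 2.98-fold, close to the 3.10-fold of Agt, and was above Ctrl in all 4 CKD and ApoE libraries. Of the 10 adipocyte markers, 1, the lipid droplet gene Plin1, was called higher in CKD versus Ctrl and 7 in ApoE versus Ctrl. All 10 had an unadjusted p below 0.05 in both comparisons. Of all 14074 genes tested, 4217 did in CKD versus Ctrl and 7542 in ApoE versus Ctrl. The median log2 difference of the 10 markers was 2.64 in CKD versus Ctrl and 2.33 in ApoE versus Ctrl. Agt amounted to 0.173% and 0.167% of that sum in CKD, 0.00903% and 0.0210% in ApoE and 0.0346% and 0.0316% in Ctrl. Both CKD libraries lay above the other 4 in this share. Ren1 amounted to 0.0643% and 0.165% of the adipocyte sum in CKD, 0.0183% and 0.0206% in ApoE and 0.0868% and 0.0686% in Ctrl, so CKD and Ctrl overlapped. With the mean log2 level of the adipocyte markers as a covariate, the log2 difference in CKD versus Ctrl was 1.17 for Agt (adjusted p = 0.625) and 1.49 for Ren1 (adjusted p = 0.370). That fit called 0 genes in CKD versus Ctrl, so the lost calls are not particular to Agt and Ren1. The covariate was 8.19 and 6.58 in CKD and at most 5.41 in Ctrl, so covariate and group moved together. The part of fat in the rise over Ctrl cannot be decided from this fit. For CKD versus ApoE the log2 difference with the covariate was 2.46 for Agt (adjusted p = 0.00229) and 1.80 for Ren1 (adjusted p = 0.00126) by limma.

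Other markers moved with the CKD group as well. Mesothelium, the lining of the body cavities, had 5 of 5 markers called higher in CKD versus Ctrl, where 2.23% of all genes tested were. The 5 summed to 60.0 and 46.8 FPKM in CKD, 9.68 and 5.83 FPKM in ApoE and 0.456 and 1.06 FPKM in Ctrl. Msln, the defining gene, rose by 3.90 on the log2 scale (SE 0.157, adjusted p = 0.00430) by limma. None of the 5 reached 1 FPKM in Ctrl. Lrrn4 and Upk1b passed the filter only through the CKD libraries, so the filter itself favoured a rise for them. With no filter, 0.0036% of 27815 genes were called in CKD versus Ctrl. Relative to the mesothelium sum, Agt was lower in CKD than in Ctrl, at 24.2% and 10.0% in CKD, 3.09% and 12.8% in ApoE and 34.8% and 32.8% in Ctrl. Ren1 stood at 8.98% and 9.90% of that sum in CKD, 6.26% and 12.5% in ApoE and 87.5% and 71.2% in Ctrl. In Ctrl both parts of these shares were near the floor, with mesothelium sums of 0.456 and 1.06 FPKM, so the shares there are uncertain. Of 5 cardiomyocyte markers tested, 3 were called higher in CKD versus Ctrl, and the sum of all 6 was 25.8 and 32.4 FPKM in CKD, 9.41 and 9.61 FPKM in ApoE and 5.94 and 5.57 FPKM in Ctrl. The sum of 5 brown fat markers was 1165 and 382 FPKM in CKD, 780 and 849 FPKM in ApoE and 94.6 and 259 FPKM in Ctrl. Of these 5 markers, 0 were called in CKD versus Ctrl by limma. An unadjusted p below 0.05 was found for 2 of the 5, and for 4217 of the 14074 genes tested. The part of these tissues in the Agt and Ren1 results was not tested beyond the adipocyte covariate, which cannot decide it for CKD versus Ctrl.

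Markers of the organs that make most circulating angiotensinogen and renin were low. The sum of 6 hepatocyte markers was 1.27 and 1.25 FPKM in CKD, 1.30 and 0.524 FPKM in ApoE and 0 and 2.79 FPKM in Ctrl. Albumin (Alb) was at 0.289 and 0.473 FPKM in CKD, 0.241 and 0.0574 FPKM in ApoE and 0 and 1.86 FPKM in Ctrl. The sum of the 5 kidney epithelium markers analysed here was 1.22 and 0.829 FPKM in CKD, 0.694 and 0.917 FPKM in ApoE and 0.325 and 0.394 FPKM in Ctrl. At this low level both CKD libraries lay above Ctrl and overlapped ApoE. Akr1b7, which marks renin-producing cells of the mouse kidney, was at 0.106 and 0 FPKM in CKD, 0 and 0.263 FPKM in ApoE and 0 in both Ctrl libraries. The sum of 5 markers of that lineage, nearly all of it from Rgs5 and Aldh1a1, was 189 and 220 FPKM in CKD, 126 and 82.4 FPKM in ApoE and 304 and 320 FPKM in Ctrl. The part of these cells in the Agt and Ren1 levels was not tested. Of 4 adrenal cortex markers, only Star, a cholesterol carrier of steroid-making cells, passed the filter, and the 4 summed to 2.60 and 2.17 FPKM in CKD, 1.17 and 1.08 FPKM in ApoE and 1.56 and 2.29 FPKM in Ctrl.

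**Figure D3:**
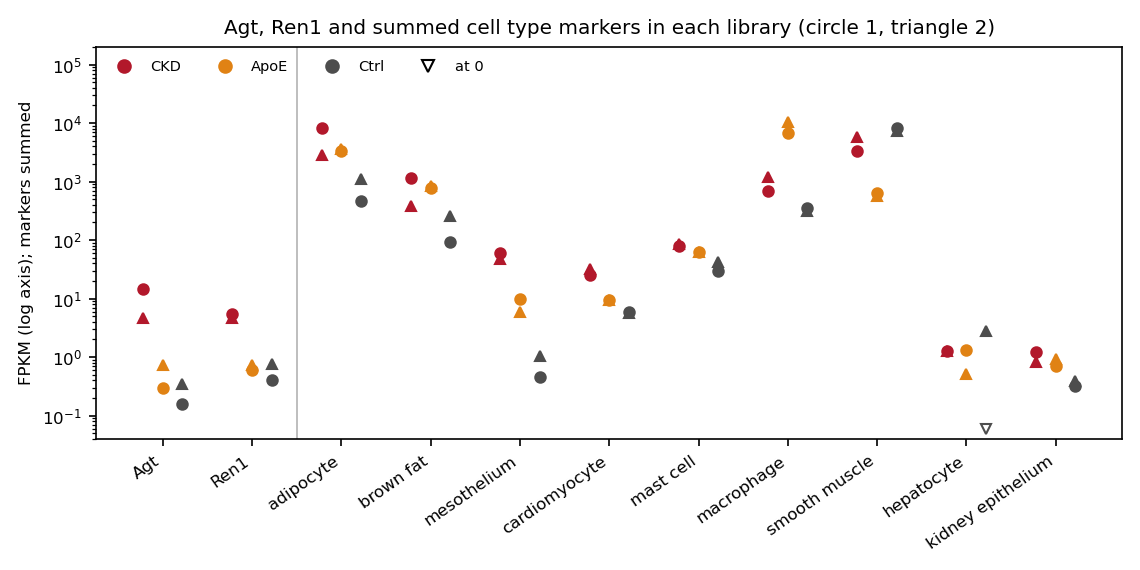
FPKM of Agt and Ren1 (left of the line) and the summed FPKM of marker lists for other cell types (right of the line) in each library, on a log axis, with open triangles for a sum of 0. The adipocyte, brown fat, mesothelium, cardiomyocyte, mast cell, macrophage and kidney epithelium sums of both CKD libraries lie above Ctrl. The hepatocyte and kidney epithelium sums stay below 3 FPKM in every library.

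Angiotensin converting enzyme was abundant in all libraries and set the ApoE group apart. Ace (ENSMUSG00000020681; GRCm38 chromosome 11, 105967945 to 105989964, plus strand) stood at 97.4 and 192 FPKM in CKD, 60.5 and 60.0 FPKM in ApoE and 139 and 130 FPKM in Ctrl. Both ApoE libraries lay below the 4 others, and the CKD libraries fell on either side of Ctrl. By limma Ace was lower in ApoE than in Ctrl by a log2 value of -1.15 (SE 0.317, adjusted p = 0.0310) and higher in CKD than in ApoE by 1.17 (SE 0.317, adjusted p = 0.0318). Between CKD and Ctrl the log2 difference was 0.02 (SE 0.317, adjusted p = 0.970), and it was -0.46 without the second CKD library, and leaving out the same library gave a log2 difference of 0.685 for CKD versus ApoE (adjusted p = 0.0188 by limma). Without either ApoE library or either Ctrl library the adjusted p for ApoE versus Ctrl lay between 0.107 and 0.135, and for CKD versus ApoE between 0.0624 and 0.133. With the adipocyte covariate the ApoE versus Ctrl difference was -0.17 (adjusted p = 0.804). That covariate was higher in both ApoE libraries than in both Ctrl libraries, so covariate and group moved together here as well.

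Ace was also read against the cells that could carry it. The sum of 7 endothelial markers was 196 and 285 FPKM in CKD, 301 and 292 FPKM in ApoE and 375 and 314 FPKM in Ctrl. Of these, Cdh5 and Kdr were called higher and Pecam1 lower in ApoE versus Ctrl. Ace amounted to 49.8% and 67.1% of the endothelial sum in CKD, 20.1% and 20.6% in ApoE and 37.2% and 41.4% in Ctrl. Of the smooth muscle sum it made 2.87% and 3.25% in CKD, 9.41% and 10.7% in ApoE and 1.68% and 1.75% in Ctrl, so Ace was lower in ApoE relative to endothelial and higher relative to smooth muscle markers. An antisense gene, Gm11651, overlaps Ace, and since the libraries keep no strand, reads of the pair cannot be told apart.

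Enpep, aminopeptidase A, which turns angiotensin II into angiotensin III (ENSMUSG00000028024; GRCm38 chromosome 3, 129269175 to 129332720, minus strand), stood at 3.94 and 2.88 FPKM in CKD, 3.25 and 1.94 FPKM in ApoE and 2.71 and 2.96 FPKM in Ctrl. The 3 groups overlapped. Its log2 difference was 0.19 in CKD versus Ctrl (SE 0.220, adjusted p = 0.588), 0.31 in CKD versus ApoE (adjusted p = 0.311) and -0.12 in ApoE versus Ctrl (adjusted p = 0.697) by limma. A processed pseudogene, Gm42628, overlaps Enpep, which leaves its level uncertain to that extent.

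The angiotensin receptors were scarce. Agtr1a, the A form of the type 1 receptor (ENSMUSG00000049115; GRCm38 chromosome 13, 30336441 to 30382867, plus strand), stood at 1.36 and 0.895 FPKM in CKD, 0.631 and 0.797 FPKM in ApoE and 0.216 and 0.522 FPKM in Ctrl. The libraries of the 3 groups did not overlap, with CKD highest and Ctrl lowest. Among genes that passed the filter, groups did not overlap for 64.2% in CKD versus Ctrl, 71.0% in CKD versus ApoE and 79.4% in ApoE versus Ctrl. The values rest on 56 and 36 reads in CKD, 28 and 33 reads in ApoE and 10 and 22 reads in Ctrl. The 95% exact Poisson intervals of CKD library 2 (0.627 to 1.24 FPKM) and ApoE library 2 (0.548 to 1.12 FPKM) overlapped. Pooled over the 2 libraries the level was 1.13 FPKM in CKD (95% exact Poisson interval 0.911 to 1.39), 0.711 FPKM in ApoE (0.544 to 0.913) and 0.361 FPKM in Ctrl (0.247 to 0.510). These intervals cover counting error only. Fitted with no filter on low values, Agtr1a had a log2 difference of 0.64 in CKD versus Ctrl (SE 0.186, adjusted p = 0.172) by limma. For CKD versus ApoE, where 17.1% were called in that fit, it was 0.31 (adjusted p = 0.349), and for ApoE versus Ctrl, where 19.1% were, 0.33 (adjusted p = 0.303). A sense intronic transcript, Gm48161, lies within Agtr1a.

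Agtr1b, the B form of the type 1 receptor (ENSMUSG00000054988; GRCm38 chromosome 3, 20314473 to 20367177, minus strand), stood at 0.472 and 0.226 FPKM in CKD, 0.0585 and 0.125 FPKM in ApoE and 0.364 and 0.369 FPKM in Ctrl. The ApoE libraries, with 2 and 4 reads, were the lowest, against 15 and 7 reads in CKD and 13 and 12 reads in Ctrl. In the unfiltered limma fit the log2 difference of ApoE versus Ctrl was -0.32 (SE 0.127, adjusted p = 0.148), that of CKD versus ApoE 0.30 (adjusted p = 0.181) and that of CKD versus Ctrl -0.03 (adjusted p = 0.977). Of the reads of both type 1 genes, Agtr1a took 78.9% and 83.7% in CKD, 93.3% and 89.2% in ApoE and 43.5% and 64.7% in Ctrl. The 95% Clopper-Pearson intervals of single libraries were wide, from 67.6% to 87.7% and 69.3% to 93.2% in CKD, 77.9% to 99.2% and 74.6% to 97.0% in ApoE, and 23.2% to 65.5% and 46.5% to 80.3% in Ctrl. The longest open reading frames of the pair, 1080 bases each, were 90.8% identical in GENCODE M21 transcripts, with a longest shared run of 66 bases. Reads from such runs could be assigned to either gene, so their split is uncertain.

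Agtr2, the type 2 receptor (ENSMUSG00000068122; GRCm38 chromosome X, 21484544 to 21489164, plus strand), had 5 and 0 reads in CKD, 3 and 0 reads in ApoE and 0 and 3 reads in Ctrl. Its highest value was 0.102 FPKM, in the first CKD library. A library with no read allows up to 0.0667 to 0.0768 FPKM by the 95% exact Poisson interval, so differences of that size could not be resolved at this depth. The longest reading frame of Agtr2 was 59.2% identical to that of Agtr1a.

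Atp6ap2, the (pro)renin receptor, which is also an accessory subunit of the vacuolar proton pump (V-ATPase) (ENSMUSG00000031007; GRCm38 chromosome X, 12587801 to 12617049, plus strand), stood at 31.2 and 40.9 FPKM in CKD, 65.6 and 66.3 FPKM in ApoE and 31.2 and 31.3 FPKM in Ctrl. The ApoE libraries were about level with each other and above all others, while CKD overlapped Ctrl. By limma it rose by 1.05 on the log2 scale in ApoE versus Ctrl (SE 0.167, adjusted p = 0.00481), a call that held without any single library, and it was lower in CKD than in ApoE by a log2 value of -0.87 (SE 0.167, adjusted p = 0.0106). The call against ApoE was lost without either ApoE library, with adjusted p of 0.0513 and 0.0612. For CKD versus Ctrl the log2 difference was 0.19 (SE 0.167, adjusted p = 0.489). In all, 2 members were called in ApoE versus Ctrl, where 44.1% of all genes tested were, 19.8% higher and 24.3% lower. In CKD versus ApoE 4 were called, where 39.7% of all genes tested were, 21.2% higher and 18.5% lower, and 2 of these 4, Agt and Ren1, are not read against that share because the filter admitted them through CKD.

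The other subunits of the pump were read beside Atp6ap2. Of 14 V-ATPase genes, 13 rose in ApoE versus Ctrl, where 19.8% of all genes tested did. In CKD versus ApoE 14 were lower, where 18.5% of all genes tested were. In CKD versus Ctrl 0 of the 14 were called by limma. Of the 14, 2 had an unadjusted p below 0.05 there, as did 4217 of the 14074 genes tested. The median log2 difference of the 14 was 1.09 in ApoE versus Ctrl, against -0.07 over all genes tested. Atp6v1b2, which encodes the widely expressed B subunit, rose most, with 83.4 and 128 FPKM in ApoE against 9.20 and 9.87 FPKM in Ctrl, a log2 value of 3.31 (SE 0.213, adjusted p = 0.000316). Atp6ap1, the other accessory subunit, was the gene not called, at 115 and 112 FPKM in ApoE against 82.9 and 77.5 FPKM in Ctrl (adjusted p = 0.0920 by limma). Atp6ap2 equalled 7.51% and 8.64% of the V-ATPase sum in CKD, 6.98% and 6.02% in ApoE and 6.75% and 6.92% in Ctrl. Macrophages are rich in lysosomes, whose acidity the pump maintains, and 6 of 7 macrophage markers rose in ApoE versus Ctrl. Their part in the rise of Atp6ap2 was not tested.

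Around the members stand peptidases that make or break angiotensins by other routes, and further receptors. Of 20 such genes 15 were tested. In CKD versus Ctrl, where 2.23% of all genes tested rose, 2 of the 15 did, the mast cell proteases Cma1 and Mcpt4. Chymase of this kind can form angiotensin II without converting enzyme. Cma1 stood at 14.1 and 15.6 FPKM in CKD, 17.2 and 13.2 FPKM in ApoE and 5.26 and 7.14 FPKM in Ctrl, a log2 difference of 1.15 in CKD versus Ctrl (SE 0.190, adjusted p = 0.0376) by limma. Mcpt4 stood at 26.3 and 25.2 FPKM in CKD, 24.9 and 26.2 FPKM in ApoE and 11.0 and 15.3 FPKM in Ctrl, with a log2 difference of 0.94 (SE 0.171, adjusted p = 0.0418). For both, the CKD and ApoE libraries overlapped and lay above Ctrl. Without the second CKD library 3 of the 15 were called higher, and 0 were called when any other single library was left out. Of 7 mast cell markers tested, which include both genes, 5 rose in CKD versus Ctrl. Among the 5 were the histamine-forming enzyme Hdc and the tryptase Tpsb2. Hdc passed the filter only through the CKD libraries, so the filter itself favoured a rise for it. In the fit with no filter, where 0.0036% of 27815 genes were called in CKD versus Ctrl, Cma1 and Mcpt4 were not. The 8 mast cell markers summed to 80.6 and 85.8 FPKM in CKD, 63.7 and 62.8 FPKM in ApoE and 30.1 and 42.1 FPKM in Ctrl, and their part in the protease results was not tested. The median log2 difference of the 15 genes was 0.06 in CKD versus Ctrl, against -0.03 over all genes tested.

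In ApoE versus Ctrl 9 of the 15 rose and 1 fell, where 19.8% of all genes tested rose and 24.3% fell. The median log2 difference of the 15 was 0.92. Those that rose included Ctsd, cathepsin D, a lysosomal relative of renin, at 1160 and 1790 FPKM in ApoE against 113 FPKM in both Ctrl libraries, a log2 value of 3.66 (SE 0.238, adjusted p = 0.000312). Anpep, aminopeptidase N, which degrades angiotensin III, rose by 3.42 (SE 0.188, adjusted p = 0.000226 by limma), with 136 and 173 FPKM in ApoE against 14.8 and 12.2 FPKM in Ctrl. Ctsa, Nln, Prcp, Rnpep, Cma1, Mcpt4 and Dpp3 also rose, by 0.45 to 1.90. Lnpep, which binds angiotensin IV, fell, with a log2 value of -0.99 (adjusted p = 0.0276 by limma). In CKD versus ApoE 8 of the 15 were lower and 1 higher, where 18.5% of all genes tested were lower and 21.2% higher. The 1 higher was the mast cell carboxypeptidase Cpa3, by 0.77 (adjusted p = 0.0411 by limma). CKD and ApoE are each compared with the same Ctrl libraries here. Mas1, a receptor for angiotensin fragments, was at 0.0958 to 0.504 FPKM over all 6 libraries. Agtrap, which binds the type 1 receptor, was at 8.18 to 12.8 FPKM and was called in no comparison (adjusted p 0.763 to 0.992).

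**Figure D4:**
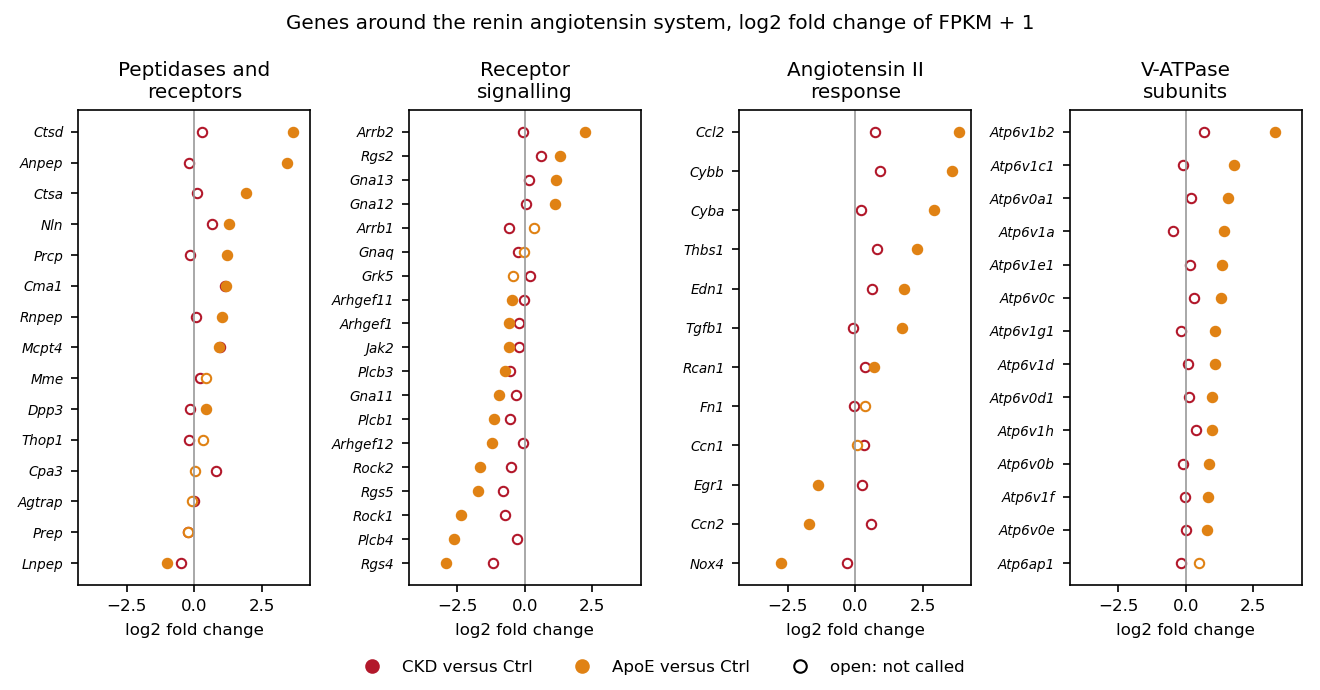
Log2 fold change of FPKM + 1 (horizontal axes) for the tested genes of 4 lists, less 1 gene not reported here, in CKD versus Ctrl and ApoE versus Ctrl, sorted by ApoE versus Ctrl; filled points were called. Filled points are frequent in ApoE versus Ctrl, where 44.1% of all genes tested were called. In CKD versus Ctrl only Cma1 and Mcpt4 are filled.

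Downstream of the type 1 receptor, 19 G protein, phospholipase, kinase and regulator genes were tested. In CKD versus Ctrl 0 of the 19 were called by limma. Of the 19, 8 had an unadjusted p below 0.05, as did 4217 of the 14074 genes tested. The median log2 difference of the 19 was -0.24. Without the second CKD library 5 were called lower and the median was -0.47, and with the adipocyte covariate the median was 0.15. Rgs4, a brake on Gq signalling that is abundant in aortic smooth muscle, had the largest difference there, at 7.49 and 14.7 FPKM in CKD, 2.67 and 2.30 FPKM in ApoE and 24.6 and 26.0 FPKM in Ctrl (CKD versus Ctrl log2 value -1.19, SE 0.285, adjusted p = 0.0667). In ApoE versus Ctrl 12 of the 19 fell and 4 rose, where 24.3% of all genes tested fell and 19.8% rose. In CKD versus ApoE 10 were higher and 5 lower, where 21.2% of all genes tested were higher and 18.5% lower. Rgs4, the phospholipase gene Plcb4, the kinase gene Rock1 and Rgs5 fell in ApoE versus Ctrl, with log2 values of -2.92, -2.64, -2.36 and -1.74, while the beta arrestin gene Arrb2 and Rgs2 rose by 2.21 and 1.30. All 7 smooth muscle markers fell in the same comparison, with a median log2 value of -3.62, and their part in these falls was not tested.

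Among 15 genes known to respond to angiotensin II in vessels, 13 were tested and 0 were called in CKD versus Ctrl by limma. Of the 13, 2 had an unadjusted p below 0.05, as did 4217 of the 14074 genes tested. The median log2 difference of the 13 was 0.36. That median was 0.002 without the second CKD library, 0.72 without the first and 1.21 with the adipocyte covariate. In ApoE versus Ctrl 7 of the 13 rose and 3 fell, where 19.8% of all genes tested rose and 24.3% fell. The rises were led by the chemokine Ccl2 with 3.83 and the phagocyte oxidase genes Cybb with 3.59 and Cyba with 2.90. The oxidase Nox4, the matrix protein Ccn2 and the transcription factor Egr1 fell, with log2 values of -2.76, -1.73 and -1.37. In the same comparison 6 of 7 macrophage markers rose, with a median over the 7 of 4.45, and all 7 smooth muscle markers fell, and their part in these changes was not tested. In CKD versus ApoE 4 of the 13 were higher and 5 lower, where 21.2% of all genes tested were higher and 18.5% lower.

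For each member that passed the filter, the genes with the most similar pattern over the 6 libraries were taken among the 7446 genes whose mean reached 5 FPKM, by the root mean square distance of centred log2(FPKM + 1) values. For Agt these were the fatty acid receptor gene Ffar4, the fatty acid transporter gene Slc27a2 and the cytochrome gene Cyp2e1, at distances of 0.459 to 0.478. Ffar4 stood at 21.3 and 6.51 FPKM in CKD, 2.79 and 3.48 FPKM in ApoE and 0.604 and 1.99 FPKM in Ctrl. For Ren1 they were Pgf, which encodes placental growth factor, Bnip3 and Acot2, at 0.236 to 0.272, with Pgf at 15.1 and 17.6 FPKM in CKD, 2.36 and 2.66 FPKM in ApoE and 2.79 and 4.10 FPKM in Ctrl. Ace was nearest to Sod3, the extracellular superoxide dismutase, Pxdc1 and the matrix proteoglycan gene Bgn, at 0.102 to 0.137. Atp6ap2 was nearest to the interferon receptor gene Ifnar2 and to Rell1, at 0.0645 and 0.0704, and Enpep to Ginm1, Chuk and Eid2, at 0.0544 to 0.0862. With 6 libraries in 3 groups, such likeness is a description of these libraries.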

How the data were processed

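Polyadenylated RNA of 6 mouse aorta libraries was analysed from the tables the authors deposited. No header or label names the unit. The values were taken as FPKM, deposited by the authors, since they could be turned back into whole reads. For this, FPKM times summed exon length (GENCODE M21) was multiplied by a depth fitted for each library to give the most whole numbers. Whole reads within 0.05 then came from 94.9% to 95.4% of low values and 61.3% to 81.3% of all values. The depths and read numbers given here were recovered in this way. In 5 of the 6 tables identifiers and values stood in 1 column, which was split before use. Bowtie2 2.2.3, HISAT2 2.1.0, TopHat2 and build GRCm38 are named in the submitters' processing notes, without roles, and the counting tool is not given in the sources used here. Symbols and exon lengths were matched for 27695 of 27815 identifiers.

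Values were used as log2(FPKM + 1), with genes of at least 1 FPKM in at least 2 libraries kept (14074), in 1 limma 3.58.1 model of group means (R 4.3.3, variance trend, robust spread, 3 residual degrees of freedom). Adjusted p-values are Benjamini-Hochberg over all genes tested. The fit was tested on simulated data. Intervals for reads are exact Poisson and for shares Clopper-Pearson at 95%, and cover counting error only. The same-numbered libraries of different groups did not deviate together, so the numbers were not used as pairs. Named are the 8 members, the called genes of the lists around them with 1 to 4 examples, and the 3 genes nearest in pattern to each member that passed the filter. Members and lists were chosen with earlier results of these data known. Some genes that this rule selects are not reported here. Cyp11b2, Umod, Slc12a1 and Kap were not analysed here.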

Additional observations from a re-analysis of the deposited data

How the results depend on the processing

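Calls in CKD versus Ctrl depended on the processing, and those against ApoE less so. For CKD versus Ctrl, 766 genes and 2 members were called. The counts were 1 and 0 with no filter on low values, 1 and 0 with only the 4 libraries compared, and 0 and 0 with the adipocyte covariate. At a filter of 5 FPKM, which removes Agt and Ren1, 596 genes and 0 members were called. Leaving out 1 library gave 0 to 2416 genes and 0 to 2 members. With the replicate block 46 genes and 1 member were called, with adjusted p = 0.0726 for Agt and 0.0494 for Ren1. The correlations of deviations between same-numbered libraries were -0.10 for CKD and ApoE, -0.23 for CKD and Ctrl and 0.05 for ApoE and Ctrl. They show no shared deviation but cannot settle whether the libraries are paired, since tissue makeup differed within groups too. The ratio of adipocyte sums, library 1 over library 2, was 2.98 in CKD, 0.931 in ApoE and 0.416 in Ctrl. The block changed no other call of a member. For CKD versus ApoE, 5592 genes and 4 members were called, with 2 members at the filter of 5 FPKM, and 2914 to 5045 genes and 1 to 4 members without 1 library. For ApoE versus Ctrl, 6208 genes and 2 members were called, with 1 member without a filter, 1798 genes and 1 member with the covariate, and 3021 to 7019 genes and 1 to 2 members without 1 library. Over 15 alternatives in CKD versus Ctrl, Agt was called in 6 (log2 1.17 to 4.62, adjusted p 0.0208 to 0.625) and Ren1 in 7 (log2 1.49 to 2.96, adjusted p 0.0138 to 0.370), always higher. Ace lost its calls with no filter (adjusted p = 0.0691 in CKD versus ApoE and 0.0682 in ApoE versus Ctrl by limma).

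Signs changed only for differences that had not been called. With the covariate the log2 value was -0.19 for Enpep in CKD versus Ctrl, and -1.29 for Agt and -0.31 for Ren1 in ApoE versus Ctrl. Leaving out 1 library gave ranges of -0.461 to 0.507 for Ace, with -0.03 without Ctrl library 2, and -0.00444 to 0.376 for Atp6ap2 in CKD versus Ctrl. In ApoE versus Ctrl it gave -0.0762 to 0.253 for Ren1 and -0.381 to 0.15 for Enpep. The cause was not tested for any of these. Median-ratio and upper-quartile scaling moved the median of all genes by at most 0.07 and changed no call of a member. An alternative filter on the mean of the 6 libraries was chosen after seeing the data and called 2, 4 and 2 members. With 2 libraries a group, and 2 to 56 reads for each type 1 receptor gene in a library, small differences in the receptors cannot be resolved.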
